A study of Mus with 6 samples.

Results

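Malat1, Neat1 and Kcnq1ot1 are 3 long noncoding RNAs that stay in the cell nucleus, and their read counts were followed across 6 libraries sequenced from 4T1, a cell line from a mouse mammary carcinoma. They were chosen by Ensembl gene ID (ENSMUSG00000092341, ENSMUSG00000092274 and ENSMUSG00000101609, in that order) and make up 3 of the 35304 IDs counted. All 3 passed the filter on low counts, as did 24935 IDs in all. The 3 IPA libraries came from cells exposed for 24 h to 10 µg/mL of IPA (isopimaric acid, a diterpene made by conifers). The 3 untreated libraries came from cells with no treatment. All cells were grown in RPMI medium with fetal bovine serum, and total RNA was extracted with Trizol. The labels name a single cell line and do not say that each replicate was a culture of its own, so the spread behind the p-values may be technical.

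Malat1 is an abundant RNA of nuclear speckles, the bodies where splicing factors are stored. Its 3′ end is not made by ordinary polyadenylation: RNase P cuts the precursor and releases a small tRNA-like RNA, mascRNA, while a triple helix protects the end that remains. Neat1 is the scaffold of paraspeckles, nuclear bodies that hold RNA-binding proteins such as Nono and Sfpq; it is made as a short polyadenylated isoform and a long isoform, and the long one is needed for paraspeckles. Kcnq1ot1 is transcribed from the paternal allele, antisense to the potassium channel gene Kcnq1, and silences neighbouring imprinted genes on the same chromosome. In mice, Neat1 is required for normal mammary gland development, and Malat1 has been studied for its part in mammary tumour metastasis.

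In the RefSeq annotation of GRCm38.p6, Malat1 spans chr19:5795690-5802672, or 6983 bases, and the 58-base mascRNA (chr19:5795924-5795981) lies inside it. Neat1 lies 22035 bases away on the same chromosome, at chr19:5824708-5845480, spans 20773 bases and has 2 RefSeq transcripts. Kcnq1ot1 spans chr7:143213111-143296547. All of its 83437 bases lie within the span of Kcnq1, so without strand information, which the sources used here do not give, reads of Kcnq1ot1 and reads from unspliced Kcnq1 RNA cannot be told apart. Whether the libraries were made from polyadenylated RNA is not given either, and this choice bears on how much of Malat1 and of the long Neat1 isoform is captured.

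Total counts ran from 3410411 to 43593509 in the IPA libraries and from 20257983 to 58924711 in the untreated libraries. Untreated replicate 2, the deepest library, stood apart from the rest: its correlation with the other libraries in log2 CPM (counts scaled to a common library size) was between 0.779 and 0.811, against 0.922 to 0.987 among the other 5. Among those 5, the values of IPA replicate 1, the shallowest library, ran from 0.922 to 0.935, and the rest from 0.968 to 0.987. These correlations are across IDs, which are not independent replicates. Comparisons between the groups are therefore given with all 6 libraries and with the 5 that leave untreated replicate 2 out. Marker genes of mammary epithelium, or of any other cell type, were not used here, because no source used here pairs the other IDs with gene names; how far the libraries match the label 4T1 was therefore not tested. In RNA from whole cultures, fewer cells expressing a gene and less RNA per cell cannot be told apart.

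Malat1 was steady among the treated libraries and scattered among the untreated ones. It had 2976, 2343 and 2454 CPM in IPA replicates 1, 2 and 3, against 4006, 929 and 2474 CPM in untreated replicates 1, 2 and 3. These values, and all CPM values below unless stated, are scaled by the TMM factors of edgeR, which adjust library totals for differences in composition. The groups overlapped: untreated replicate 1 was above every IPA library, untreated replicate 2 below every one, and untreated replicate 3 between IPA replicates 1 and 3. The highest IPA library held 1.27 times the level of the lowest, and the highest untreated library 4.31 times that of the lowest. Means were 2591 ± 338 CPM with IPA and 2470 ± 1538 CPM untreated (SD, n = 3 each).

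No difference in Malat1 between treated and untreated cells was detectable. The log2 fold change, IPA over untreated, was 0.07 ± 0.51 (SE; edgeR quasi-likelihood test, adjusted p = 0.967), with a 95% interval from -1.13 to 1.27. That interval holds changes of more than 2-fold in either direction. Over all tested IDs the same comparison called 0%, that is 0 of 24935 with edgeR at an adjusted p under 0.05. The same edgeR test gave an unadjusted p under 0.05 for 1560 IDs, or 6.26%. On the same IDs limma-voom called 0. DESeq2, which left 5728 of them without an adjusted p, called 44 higher and 82 lower. Across the tested IDs the median log2 fold change was -0.08, and 0.13 when library totals replaced the TMM factors, so the Malat1 value lay 0.15 above the median with TMM and 0.08 above it with totals. Without untreated replicate 2 the Malat1 fold change had the opposite sign, at -0.34 ± 0.19, with an interval from -0.74 to 0.05 (edgeR adjusted p = 0.388). That comparison rests on 2 untreated libraries that themselves differed 1.62-fold in Malat1. Leaving out untreated replicate 1 as well gave 0.06 (edgeR adjusted p = 0.973), and leaving out untreated replicate 3 in its place gave -0.65 (edgeR adjusted p = 0.049), in a fit that called 4.81% of all tested IDs; either way a lone untreated library is taken to vary like the IPA group. The outcome for Malat1 thus changed with the untreated library it was set against.

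Counting error was a small part of this scatter. Malat1 had 11286, 110379 and 106407 reads in IPA replicates 1, 2 and 3, against 82538, 41173 and 133706 in untreated replicates 1, 2 and 3. The exact Poisson 95% interval of the count was ±1.85% in the shallowest library, IPA replicate 1, and ±0.967% in untreated replicate 2. These intervals cover counting error only.

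Neat1 had the narrowest range of the 3 RNAs over the 6 libraries, its highest level being 1.66 times its lowest, against 1.85 times for Kcnq1ot1 and 4.31 times for Malat1. Without untreated replicate 2 these ranges were closer, at 1.66 times for Neat1, 1.84 times for Kcnq1ot1 and 1.71 times for Malat1. Its level was 909, 854 and 671 CPM in IPA replicates 1, 2 and 3, against 883, 1090 and 1116 CPM in untreated replicates 1, 2 and 3. On this TMM scale the groups overlapped only through untreated replicate 1, which lay between IPA replicates 1 and 2. The other untreated libraries were above every IPA library. Before TMM scaling untreated replicate 2 overlapped too: its 819 CPM lay below the 1011 and 923 CPM of IPA replicates 1 and 2. Means were 811 ± 125 CPM with IPA and 1030 ± 127 CPM untreated (SD, n = 3 each). The log2 fold change was -0.34 ± 0.25 (SE; edgeR adjusted p = 0.676), with a 95% interval from -0.93 to 0.24. Without untreated replicate 2 it was -0.32 ± 0.16 (edgeR adjusted p = 0.329), with an interval from -0.66 to 0.02. The estimate hardly moved, and its SE was smaller. The scatter of Neat1 itself did not shrink: the untreated SD was 127 CPM with that library and 164 CPM without it. The coefficient of variation that edgeR fitted over all tested IDs was 0.570 with that library and 0.178 without it. Neat1 was called in neither comparison. The 6-library value was -0.11 when scaled by library totals alone. Relative to the median of all tested IDs it was -0.26 with TMM and -0.24 with totals.

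Kcnq1ot1, the least counted of the 3, had 30.6, 41.7 and 35.7 CPM in IPA replicates 1, 2 and 3. The untreated replicates 1, 2 and 3 had 56.4, 30.5 and 44.6 CPM. Untreated replicates 1 and 3 were above every IPA library, whereas untreated replicate 2 was just below the lowest of them, IPA replicate 1. The value of IPA replicate 1 rests on 116 reads: before TMM scaling it was 34.0 CPM, with an exact Poisson 95% interval from 28.1 to 40.8 CPM, so its order against untreated replicate 2 on the TMM scale is not settled. Means were 35.99 ± 5.55 CPM with IPA and 43.8 ± 13.0 CPM untreated (SD, n = 3 each).

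Over all 6 libraries the log2 fold change of Kcnq1ot1 was -0.28 ± 0.28 (SE; edgeR adjusted p = 0.745), with a 95% interval from -0.94 to 0.38. Relative to that median it was -0.20 with TMM and -0.23 with totals. Without untreated replicate 2 it was -0.49 ± 0.16, with an interval from -0.83 to -0.15. The unadjusted p was 0.0068 and the edgeR p adjusted over all 25592 IDs tested was 0.101, so Kcnq1ot1 was not called there. In that comparison 3.46% of all tested IDs were called, 1.26% higher and 2.2% lower with IPA, and none of the 3 RNAs was among them. That was 322 IDs higher and 564 lower, against 691 and 327 with library totals in place of the TMM factors. In those 5 libraries every IPA value of Kcnq1ot1 was below every untreated value; of the 24935 IDs tested over 6 libraries, 18.2% showed the same order in these 5. Malat1 and Neat1 did not. Over all 6 libraries none of the 3 RNAs had every IPA value below every untreated value, an order that 10.8% of tested IDs showed. Without untreated replicates 2 and 3 the fold change of Kcnq1ot1 was -0.66 (edgeR adjusted p = 0.0425), in the fit that called 4.81% of all tested IDs. That fit sets 1 untreated library against 3 and takes that library to vary like the IPA group.

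**Figure D1:**
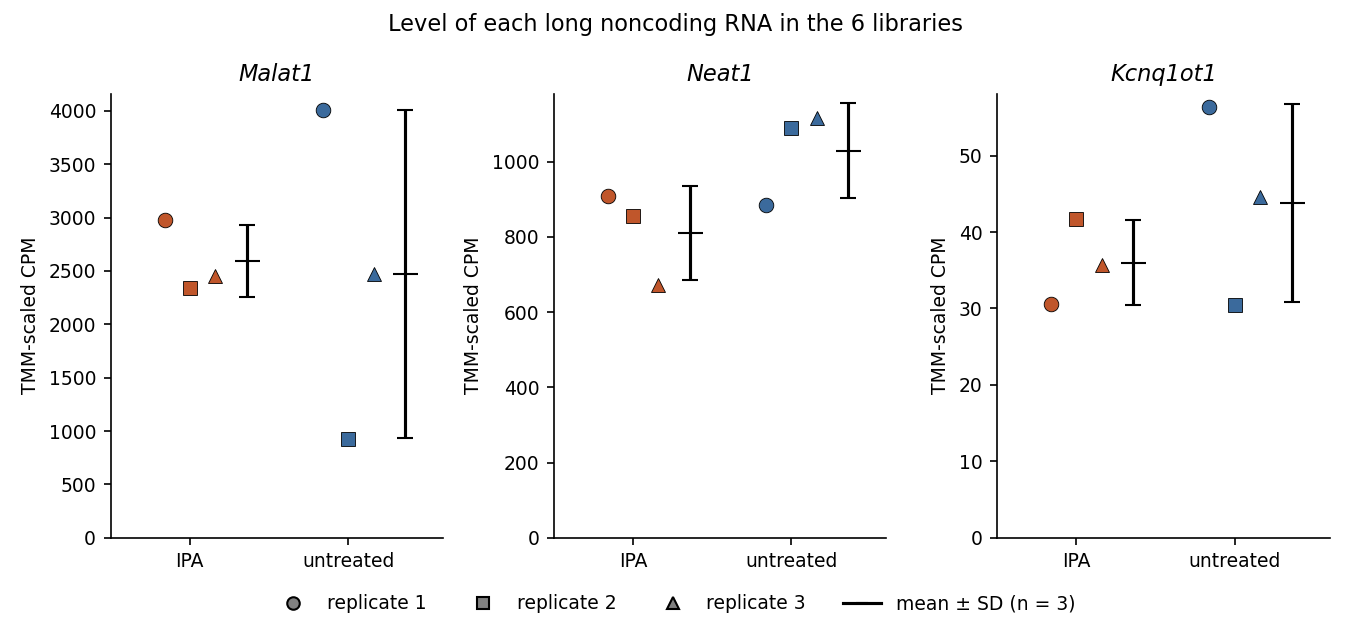
TMM-scaled CPM (y axes, from 0) of Malat1, Neat1 and Kcnq1ot1 in each IPA and untreated library; symbols mark replicates and bars the mean ± SD of 3 libraries. Untreated replicate 2, the square, is the lowest library for Malat1 at 929 CPM and for Kcnq1ot1 at 30.5 CPM, but lies at 1090 CPM for Neat1, close to the highest.

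**Figure D2:**
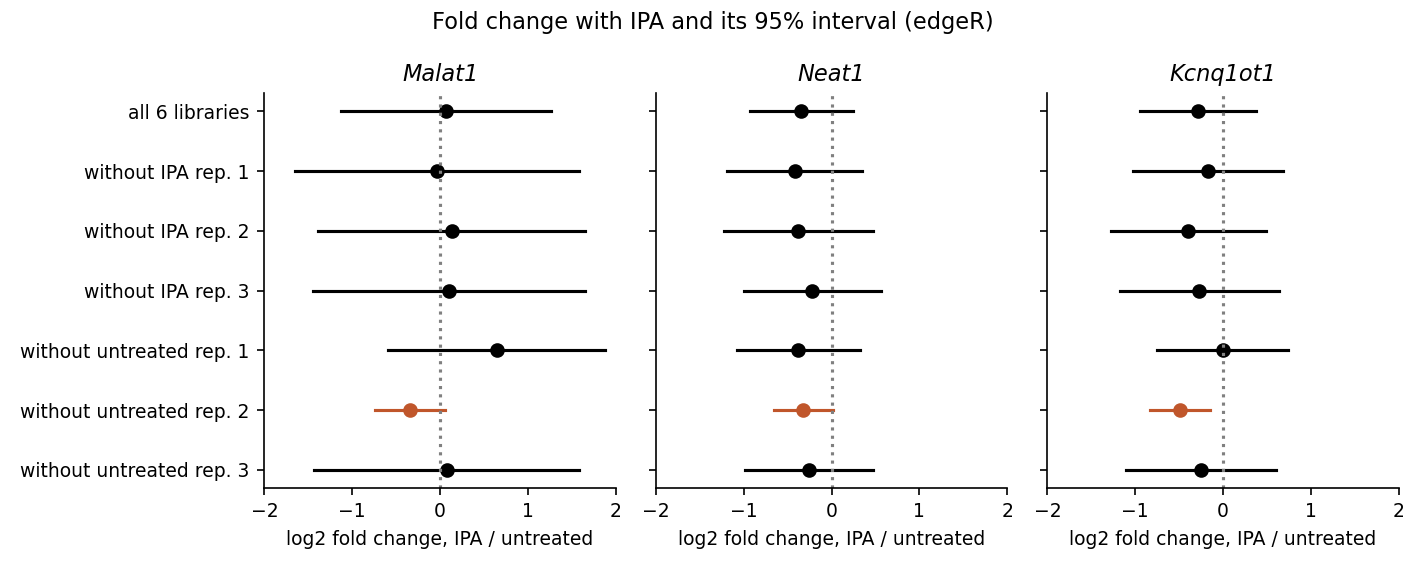
Log2 fold change of each RNA, IPA over untreated (x axes), with its 95% interval from edgeR, for all 6 libraries and with each library left out in turn; the fit without untreated replicate 2 is in orange. The interval narrows most without that library, and only that of Kcnq1ot1, from -0.83 to -0.15, then leaves out 0. The coefficient of variation fitted over all tested IDs fell as well, from 0.570 with that library to 0.178 without it.

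Per length, the order of the 3 RNAs was the same in every library. On the scale of CPM of the library total, without TMM factors, per kilobase of the RefSeq span, levels were between 363 and 474 for Malat1 in the IPA libraries, and between 100.1 and 583 in the untreated libraries. Neat1 followed with 34.1 to 48.7 in the IPA libraries and 39.4 to 54.9 in the untreated libraries. Kcnq1ot1 came last, with 0.408 to 0.54 in the IPA libraries and 0.275 to 0.687 in the untreated libraries. No 2 of the 3 overlapped on this scale: the lowest Malat1 value, in untreated replicate 2, was above the highest Neat1 value, in untreated replicate 3. The Neat1 figure uses the span of the gene, and reads of its short isoform fall on only part of that span. Together the 3 RNAs took 0.435%, 0.35% and 0.334% of the reads of IPA replicates 1, 2 and 3, against 0.503%, 0.154% and 0.371% in untreated replicates 1, 2 and 3.

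The balance between the RNAs within a library needs no scaling between libraries. The ratio of Neat1 to Malat1 counts was 0.305, 0.365 and 0.273 in IPA replicates 1, 2 and 3, against 0.221, 1.17 and 0.451 in untreated replicates 1, 2 and 3. Untreated replicate 2 was the 1 library in which Neat1 reads outnumbered Malat1 reads. The other untreated libraries lay on either side of the IPA libraries. The mean log2 ratio was -1.68 ± 0.21 with IPA and -1.03 ± 1.21 untreated (SD, n = 3 each), a difference of -0.65 (two-sided exact permutation test, p = 0.6, 0.8 adjusted over the 3 ratios). Without untreated replicate 2 the difference was -0.01 (exact permutation p = 1).

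The ratio of Kcnq1ot1 to Malat1 counts was 0.0103, 0.0178 and 0.0145 in IPA replicates 1, 2 and 3, against 0.0141, 0.0328 and 0.018 in untreated replicates 1, 2 and 3. Here too untreated replicate 2 was the highest library, and the groups overlapped. The log2 difference, IPA minus untreated, was -0.55 over 6 libraries (exact permutation p = 0.4, 0.8 adjusted) and -0.20 over 5 (exact permutation p = 0.8). Kcnq1ot1 to Neat1 counts stood at 0.0337, 0.0488 and 0.0532 in IPA replicates 1, 2 and 3, against 0.0638, 0.028 and 0.04 in untreated replicates 1, 2 and 3. The log2 difference was 0.10 over 6 libraries (exact permutation p = 0.8) and -0.18 over 5 (exact permutation p = 0.8). Adjusted over the 3 ratios, these exact permutation p-values were 0.8 over 6 libraries and 1 over 5. With 3 libraries against 3 such an exact permutation test cannot go below p = 0.1, and with 3 against 2 not below 0.2, so these ratios could not have passed a threshold of 0.05. On the log2 scale the spread of Neat1 to Malat1 was 0.21 (SD) among the IPA libraries and 1.21 among the untreated ones, or 0.73 between untreated replicates 1 and 3.

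**Figure D3:**
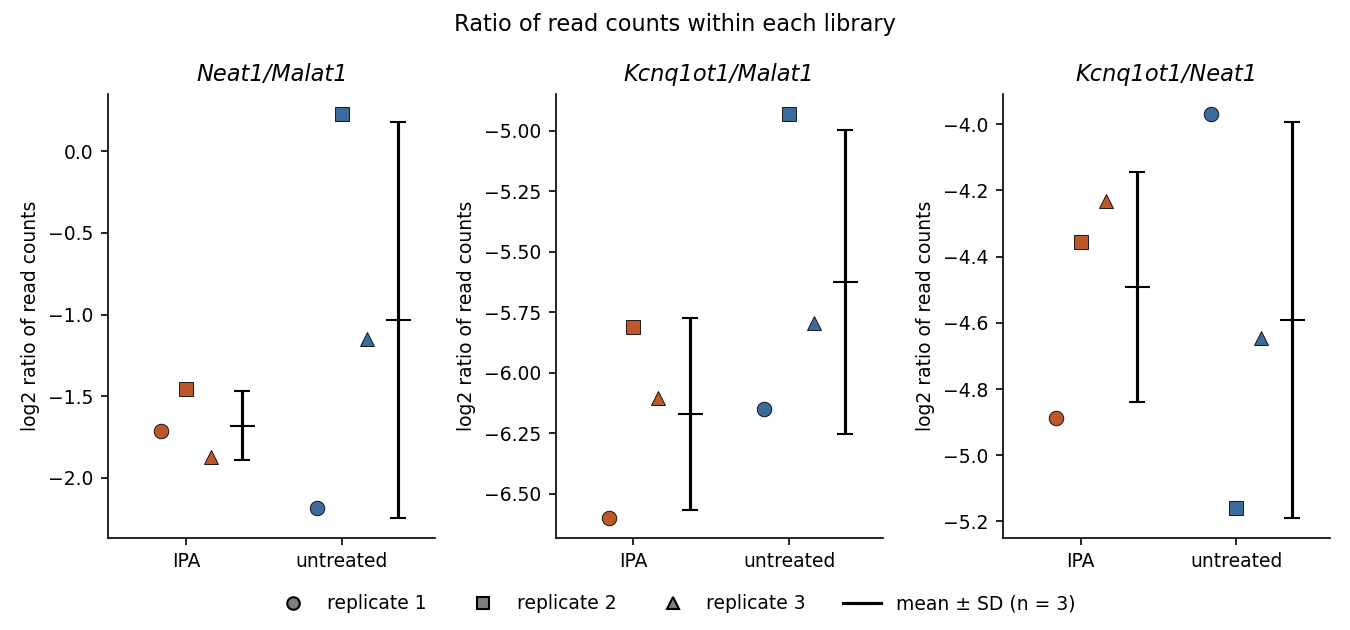
Log2 ratio of read counts within each library (y axes) for each pair of the 3 RNAs, by group, with symbols for replicates and the mean ± SD of 3 libraries. Untreated replicate 2 is the highest library in both ratios to Malat1, at 0.23 for Neat1 and -4.93 for Kcnq1ot1, and the lowest for Kcnq1ot1 to Neat1, at -5.16.

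Set against the other untreated libraries, untreated replicate 2 had less Malat1, somewhat less Kcnq1ot1 and about as much Neat1. With a single library on one side this is a description without a test, and the library was singled out after it was seen to stand apart. Malat1 stood at 929 CPM in untreated replicate 2, against a mean of 3240 CPM in untreated replicates 1 and 3, a log2 ratio of -1.80 or 3.49-fold lower. This log2 ratio was -2.24 with library totals, -2.11 against untreated replicate 1 alone and -1.41 against untreated replicate 3 alone. The mean of the IPA libraries was also 2.79 times the level of untreated replicate 2. Kcnq1ot1 stood at 30.5 CPM in untreated replicate 2, against a mean of 50.5 CPM in untreated replicates 1 and 3, a log2 ratio of -0.73. Neat1 stood at 1090 CPM in untreated replicate 2, against a mean of 999.6 CPM in untreated replicates 1 and 3, a log2 ratio of 0.12. The sign of the Neat1 ratio was not stable: it was -0.31 with library totals and -0.03 against untreated replicate 3 alone.

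These ratios have to be read against how far untreated replicate 2 lay from the others at large. Of all 24935 tested IDs, 30.6% were at least 2-fold lower there than the mean of untreated replicates 1 and 3, 18.6% at least 4-fold lower, and 24.7% at least 2-fold higher. Malat1 had 20.05% of tested IDs below it, or 17.1% of the 18839 IDs with at least 1 CPM in at least 3 libraries. Kcnq1ot1 had 35.7% of tested IDs below it, and Neat1 56.6%. Of the tested IDs, 2114 or 8.48% had 0 counts in untreated replicate 2. Among the 2301 IDs that averaged 100 CPM or more, to which Malat1 and Neat1 belong, 18.9% were at least 2-fold lower and 3.82% at least 4-fold lower, and 119 of them, or 5.17%, were lower than Malat1. That group was chosen after the data had been examined. The depth of untreated replicate 2, 58924711 counts, was the highest of the 6, and its TMM factor of 0.754 the lowest, against 1.02 to 1.11 in the others. The part that depth or composition plays in the Malat1 value was not tested.

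**Figure D4:**
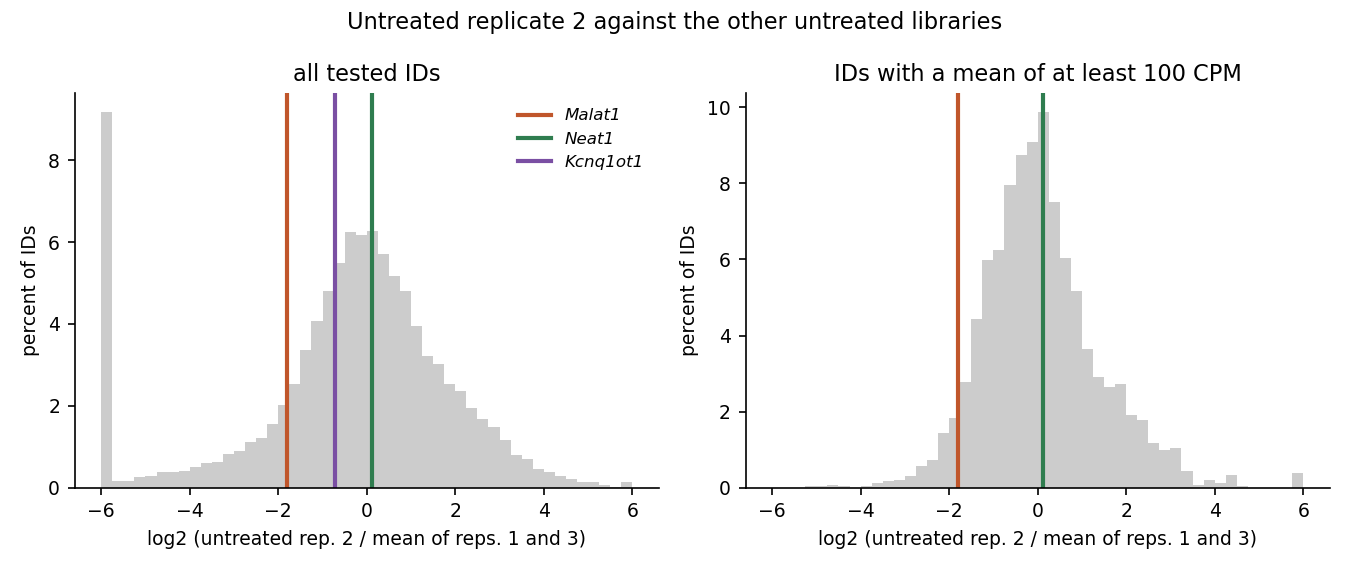
Log2 ratio of untreated replicate 2 to the mean of untreated replicates 1 and 3 in TMM-scaled CPM (x axes) against the percent of IDs per bin (y axes), for all tested IDs and for those that averaged 100 CPM or more; IDs beyond a log2 ratio of 6 are in the end bins. Lines mark Malat1 at -1.80, Neat1 at 0.12 and, among all tested IDs, Kcnq1ot1 at -0.73.

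Untreated replicates 1 and 3 also differed from each other. Malat1 was 1.62-fold higher in untreated replicate 1 than in untreated replicate 3, and Kcnq1ot1 1.27-fold higher, while Neat1 was at 0.792 of the level of untreated replicate 3. For Malat1, 79.5% of tested IDs had a smaller gap between these 2 libraries, for Neat1 52.3% and for Kcnq1ot1 52.8%. The Malat1 gap was thus larger than that of most tested IDs, but a gap between 2 libraries does not measure how variable an RNA is.

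The profiles of the 3 RNAs over the libraries differed. Likeness was measured over the 6 libraries as the root mean square difference of log2 CPM, each centred on its own mean, among IDs that averaged 5 CPM or more. Malat1 and Neat1, neighbours on the chromosome, differed by 0.779, and 7691 of the other 13151 IDs were closer to Malat1 than Neat1 was. In the other direction, 10748 IDs were closer to Neat1 than Malat1 was. Without untreated replicate 2 these counts were 6198 and 8369. Malat1 and Kcnq1ot1 differed by 0.51, and Neat1 and Kcnq1ot1 by 0.403. The ID closest to Malat1 was ENSMUSG00000086387, at a difference of 0.0586, with 10.3, 7.45 and 7.57 CPM in IPA replicates 1, 2 and 3, against 12.3, 2.98 and 7.66 CPM in untreated replicates 1, 2 and 3. It shares the low level of untreated replicate 2 that dominates the Malat1 profile. This follows from the choice, since the ID was picked for likeness over libraries that include that one. Closest to Neat1 was ENSMUSG00000025212, at 0.0577, with 60.9, 55.8 and 48.3 CPM in IPA replicates 1, 2 and 3, against 58.8, 78.7 and 74.1 CPM in untreated replicates 1, 2 and 3. The closest to Kcnq1ot1 was ENSMUSG00000009545, at 0.0641, and for each RNA the second closest lay at 0.0854 or less. Without untreated replicate 2 Malat1 and Neat1 differed by 0.352, Malat1 and Kcnq1ot1 by 0.294 and Neat1 and Kcnq1ot1 by 0.321, and the ID closest to Malat1 was another one, ENSMUSG00000044763, whose level in untreated replicate 2, 19.6 CPM, was the highest of its 6 libraries. Likeness over so few libraries is given as a description only.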

How the data were processed

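Per the labels and the values, the authors deposited 1 table of raw read counts, whole numbers per Ensembl gene ID, with 1 column for each of the 6 libraries. The genome builds GRCm38 and mm10 are named in the submitters' processing notes; which aligner, counter and annotation were used, and how strand and reads mapping to several places were treated, is not given in the sources used here. Groups and replicate numbers came from the sample titles, and the IPA columns, which carry a shorter abbreviation, were matched by their letters and number.

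Counts were tested with edgeR 4.0.16 in R 4.3.3 (robust quasi-likelihood F-test), with TMM factors and filterByExpr, over all IDs, with Benjamini-Hochberg adjustment. A call means an adjusted p under 0.05. Standard errors are the log2 fold change over the square root of F, and intervals use the test's degrees of freedom. Tested on simulated counts over 6 libraries, this procedure recovered 0 of 100 2-fold changes and 8 of 100 4-fold changes, with 1 false call. Over 5 libraries it recovered 75 of 100 and 98 of 100, with 16 false calls. Simulated libraries of a group shared the same mean level for each ID, so none stood apart as untreated replicate 2 does. CPM values for figures and levels use the TMM factors, and the log2 CPM used for likeness and correlations a prior count of 2. Ratios of counts used a pseudocount of 0.5 on the log2 scale and an exact permutation test over libraries. Depth ran from 3410411 to 58924711 counts.

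The members, lists and tests were chosen with earlier results of these data known. The genes set to be named were the 3 RNAs and, for each, the 2 IDs of closest profile over the 6 libraries. Of these 2 the closest is given here. The ID closest to Malat1 over 5 libraries was added to that choice. These IDs carry no gene names here: of the 49997 RefSeq rows at hand, 0 carry an Ensembl ID. For the same reason the lists set by symbol (paraspeckle and speckle proteins, Malat1 end processing, other long noncoding RNAs, neighbouring genes, cell type markers) were not analysed here. Positions and spans came from that table. Alternatives were DESeq2 1.42.0, limma-voom (limma 3.58.1), RLE and upper-quartile factors, library totals, other filters, the replicate block and leaving out each library.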

Additional observations from a re-analysis of the deposited data

How the results depend on the processing

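Over 6 libraries none of the 3 RNAs was called under any of 14 alternatives, with adjusted p-values from 0.101 to 0.998. With 1 library left out, the log2 fold change ran from -0.34 to 0.64 for Malat1, from -0.42 to -0.22 for Neat1 and from -0.49 to -0.003 for Kcnq1ot1. Malat1 changed sign without untreated replicate 2 (-0.34) and without IPA replicate 1 (-0.04), and kept it under the other 12. Over 5 libraries no RNA was called under 12 of 13 alternatives; without untreated replicate 3, Malat1 and Kcnq1ot1 were, in a fit that called 4.81% of all tested IDs (509 higher and 718 lower). Leaving out 1 more library gave values from -0.65 (untreated replicate 3 left out) to 0.0556 (untreated replicate 1 left out) for Malat1, -0.47 to -0.15 for Neat1 and -0.66 to -0.30 for Kcnq1ot1.

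The count of called IDs over 6 libraries, 0 in both directions, became 44 higher and 82 lower with DESeq2, and 1 higher with library totals or with no filter; with 1 library left out it ran from 0 to 322 higher and 0 to 564 lower. Over 5 libraries, 322 higher and 564 lower became 665 higher with DESeq2, 660 and 1009 with limma-voom, 691 and 327 with library totals, 701 higher with no filter and 357 lower with at least 1 CPM in at least 3 libraries. With 1 more library left out the counts ran from 92 to 719 higher and from 153 to 763 lower. The cause of these changes was not tested.

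With the replicate block the log2 fold changes over 6 libraries were 0.29 for Malat1, -0.35 for Neat1 and -0.25 for Kcnq1ot1, none called, and over 5 libraries 136 IDs were higher and 202 lower. Deviations of same-numbered libraries from their group means correlated at -0.0771, 0.0183 and 0.161 for replicates 1, 2 and 3. The untreated mean includes untreated replicate 2, which enters every untreated deviation, so these values cannot decide whether the numbers pair the libraries. The main tests used no pairing, and the replicate block is given only as an alternative.

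The log2 difference in the ratio of Kcnq1ot1 to Neat1 turned from 0.10 to -0.03 without IPA replicate 3 and to -0.18 without untreated replicate 2; with 1 library left out it ran from -0.18 to 0.41, that of Kcnq1ot1 to Malat1 from -0.81 to -0.20, and that of Neat1 to Malat1 from -1.22 to -0.01. Pseudocounts of 0 and 1 kept every sign. In untreated replicate 2 the Kcnq1ot1 ratio was -1.16 with library totals, against -0.73, and the Neat1 ratio turned to -0.31 with library totals and to -0.0341 against untreated replicate 3 alone. Depth limits Kcnq1ot1 most, with 116 reads in IPA replicate 1.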
